A study of Drosophila melanogaster with 4 samples.

Results

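The peptidoglycan recognition proteins (PGRPs) and the Gram-negative binding proteins (GNBPs) are the microbe sensors of Drosophila innate immunity, and the transcripts of 10 such genes were followed here in early pupae with and without ubiquitous knockdown of the dopamine receptor Dop1R2. The genes are PGRP-SA, PGRP-SD, PGRP-SB1, PGRP-SC2, PGRP-LA, PGRP-LB, PGRP-LC, PGRP-LE, GNBP1 and GNBP3, and each was measured by the probe sets whose only gene name in the array annotation is one of these. Under that rule 6 of the 10 genes had a probe set, with 7 probe sets in all among 13966 on the array (PGRP-LA has 2). PGRP-SA, PGRP-SD, PGRP-LC and GNBP1 have no probe set under their own names in the annotation used and were not analysed here.

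The arrays hold 2 Dop1R2 RNAi samples, of genotype UAS-dsDop1R2/+;Act5C-Gal4/+ (the knockdown), and 2 control samples, of genotype w1118;Act5C-Gal4/+. All 4 carry the Act5C-Gal4 driver, which is active in all tissues, and all came from crosses kept at 29 °C. Each sample is RNA from a pool of 10 to 20 whole pupae at the pale stage, so an array averages over animals and tissues. The study's methods describe controls bred from w1118 and the driver line, as the labels do, whereas its figure legends write the control genotype with UAS-dsDop1R2 and a TM6B balancer and no driver. The labels were followed here. The 2 arrays of a group are labelled as biological replicates.

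PGRPs share a domain related to bacterial amidases that binds peptidoglycan, the mesh of the bacterial cell wall. Secreted sensors such as PGRP-SA with GNBP1 (for Gram-positive bacteria) and GNBP3 (for fungal glucans) start a protease cascade that cleaves Spätzle, the ligand of the receptor Toll, whereas PGRP-LC at the cell surface and PGRP-LE inside the cell switch on the Imd pathway and its transcription factor Relish. A further group keeps the amidase activity and cuts peptidoglycan into pieces that no longer signal, which can dampen Imd. PGRP-SC2, PGRP-LB and PGRP-SB1 keep the amidase activity, and the effect of each on Imd was not measured here.

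Signals are intensities on a linear scale as given by Microarray Suite (MAS5), and the median over probe sets was between 43.4 and 45.0 on every array. Probe sets were tested where the signal reached the 40th percentile of the array on at least 2 of 4 arrays, which left 8749, and the groups were compared on the log2 scale with limma, with p adjusted over these 8749. The storage protein and fat body genes Lsp2, Fbp1, Fbp2 and apolpp were among the brightest on all arrays (summed signal 20059 and 20695 in knockdown pupae, 20319 and 21070 in controls), whereas 5 of 8 salivary gland markers were under the 20th percentile on every array. Dop1R2 itself is named for none of the probe sets in the annotation used, so the knockdown was not checked on these arrays. With 2 arrays against 2, an exact permutation test cannot give a two-sided p below 0.333, and the number of arrays limits the precision of every value.

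None of the 6 tested probe sets, 1 for each of the 6 genes, passed the threshold of 0.05 on adjusted p from limma, in either direction. Over all tested probe sets 1.38% passed as higher and 0.103% as lower in knockdown pupae. PGRP-SC2 and GNBP3, 2 of the 6, were lower at unadjusted p, against 5.51% of all tested probe sets, and 0 were higher, against 7.53%. Whether either share differs from the background was not tested. Both Dop1R2 RNAi arrays lay below both control arrays for 3 of the 6 (PGRP-SB1, PGRP-SC2 and GNBP3), against 24.0% of all tested probe sets, and above both for 1 (PGRP-LB), against 21.1%. The median log2 fold change was -0.18 over the 6 and -0.04 over all tested probe sets. The half-width of the 95% intervals ran from 0.52 to 0.81 on the log2 scale. These intervals are not adjusted for the number of probe sets, and a call at the adjusted threshold needs a larger difference (PGRP-SC2 at -0.79 and GNBP3 at -0.55 did not pass). In whole pupae, fewer cells that make a transcript and less transcript per cell cannot be told apart.

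**Figure D1:**
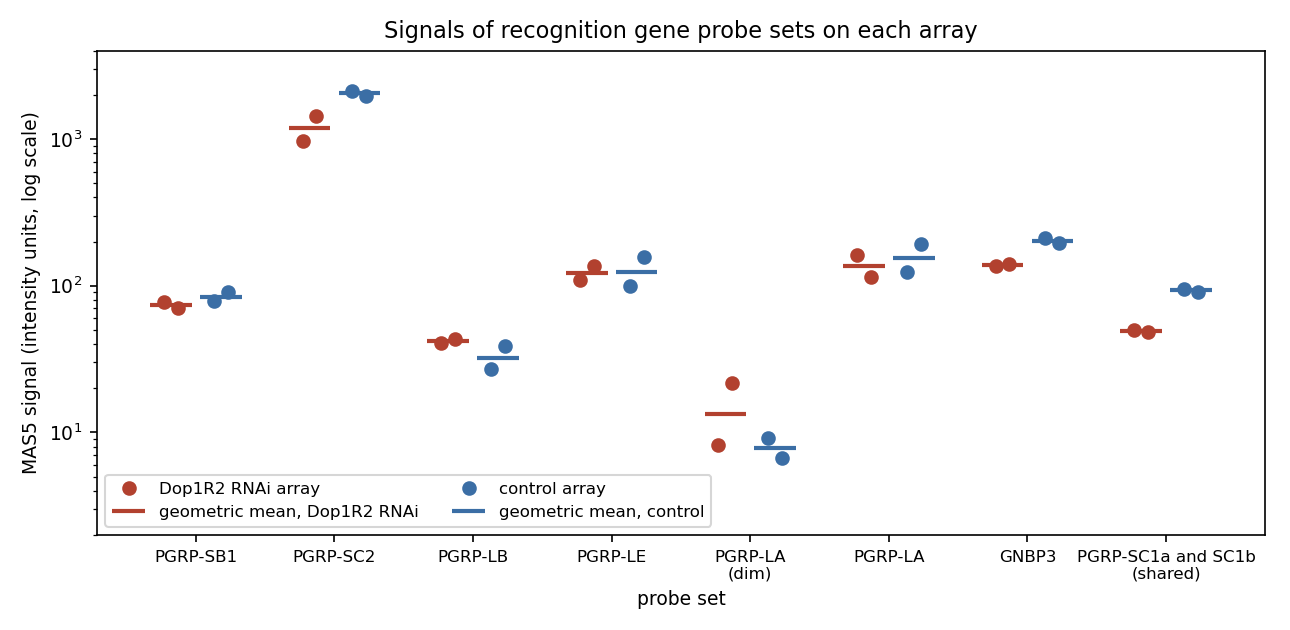
Signal (intensity units, log scale) of the 7 probe sets of the listed genes and of the probe set shared by PGRP-SC1a and PGRP-SC1b, with a point for each array (Dop1R2 RNAi left, control right) and a line at the geometric mean of the group. PGRP-SC2 lay at 971 and 1447 in knockdown pupae against 2134 and 1966 in controls, and PGRP-LE and PGRP-LA had overlapping groups.

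The brightest of the amidase genes was PGRP-SC2, a secreted enzyme that is known from the gut, where it degrades peptidoglycan of resident bacteria. Its signal reached 971 and 1447 in the knockdown, against 2134 and 1966 in the controls. Both knockdown arrays were therefore below both controls, by 0.44 to 1.14 on the log2 scale over the 4 array pairs, and all 4 values stayed within the top signals of the array (97.3rd percentile or higher). Mean signals were 1209 ± 336 in the knockdown and 2050 ± 118 in the controls (SD over 2 arrays each). The log2 fold change was -0.79 (standard error, SE, 0.23, 95% interval -1.34 to -0.23, adjusted p = 0.24 from limma), a geometric mean 42.1% below that of the controls. The knockdown arrays differed from each other by 49.0% and the controls by 8.52%, so the size of the difference depends on which knockdown array is used.

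Whether PGRP-SC2 passed the threshold turned on a single array. Without Dop1R2 RNAi replicate 2, the log2 fold change of PGRP-SC2 was -1.08 with adjusted p = 0.000555 from limma. Without Dop1R2 RNAi replicate 1 it was -0.50 (adjusted p = 0.222), and without a control array it was -0.73 or -0.85. In a fit with 1 array in a group the lone array is assumed to vary like the other group. Over all alternatives the adjusted p of PGRP-SC2 ran between 0.000555 and 0.739.

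PGRP-SC2 lies beside PGRP-SC1b in the reference gene order, and PGRP-SC1a is separated from PGRP-SC1b by CG14743 alone among protein-coding genes. PGRP-SC1a and PGRP-SC1b encode amidases of the same kind and share their probe sets, so neither can be read on its own and both stand outside the member rule. The brighter shared probe set had signals of 50.1 and 48.3 in knockdown pupae and 95.1 and 90.9 in controls. The replicates differed by 3.79% and 4.64%, and the groups were well apart. The log2 fold change was -0.92 (SE 0.23, 95% interval -1.47 to -0.37), with adjusted p = 0.172 from limma. It did not pass in any alternative (adjusted p 0.156 to 0.535), and its log2 fold change stayed between -0.95 and -0.62. A dimmer probe set with the same names read 5.84 and 7.45 in knockdown pupae and 4.53 and 9.47 in controls, under the filter. Among all tested probe sets, the log2 fold changes of the brighter shared probe set and of PGRP-SC2 stood at the 3.55th and 5.27th percentile. Probe sequences were not used here, so signal shared between PGRP-SC2 and its relatives was not checked.

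Midgut markers were measured beside these amidases. Of 10 listed markers 9 had a probe set, and 3 of these were bright enough to be tested. Amy-d and alphaTry were under the 20th percentile on all arrays. Of the 9, 5 had both Dop1R2 RNAi arrays below both controls and 1 had both above. Over all tested probe sets the shares are 24.0% and 21.1%, and no share was taken over dim ones. Their summed signal was 326 to 360 in knockdown pupae and 426 to 477 in controls, most of it from the mannosidase gene LManII (240 and 196 against 296 and 348, log2 fold change -0.56, adjusted p = 0.376 from limma). The other tested midgut markers, the protease genes Jon65Ai (38.9 and 33.5 against 30.8 and 7.26) and Jon25Bii (35.2 and 56.2 against 61.1 and 17.4), had log2 fold changes of 1.27 and 0.45 (adjusted p = 0.502 and 0.789). The median over the 3 was 0.45, opposite in sign to the difference in summed signal. Their part in the values of the PGRP-SC genes was not tested.

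PGRP-LB is an amidase that limits Imd signalling in the gut and in the haemolymph. It had the only positive log2 fold change among the 6. Its signal was 40.8 and 43.2 in knockdown pupae, against 27.2 and 38.6 in controls. The lower control array (38.1st percentile) sets most of the gap, and the other is within 0.16 on the log2 scale of both knockdown arrays. PGRP-LB thus had a log2 fold change of 0.37 (SE 0.34, 95% interval -0.44 to 1.19, adjusted p = 0.675 from limma), and without control replicate 1 it was 0.12. PGRP-LB was dimmest among the tested probe sets of the listed genes on each array and stands close to the filter.

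PGRP-SB1, a secreted amidase that is strongly induced on infection in adult flies, had signals of 77.7 and 71.0 in knockdown pupae and 78.3 and 91.0 in controls. The groups did not overlap, but the gap between the nearest arrays was smaller than that between the replicates of either group. The log2 fold change was -0.18 (SE 0.23, 95% interval -0.74 to 0.37, adjusted p = 0.774 from limma). Its neighbour PGRP-SB2, a related amidase gene, was too dim to be tested, at 6.39 and 5.38 in knockdown pupae and 5.61 and 17.9 in controls.

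**Figure D2:**
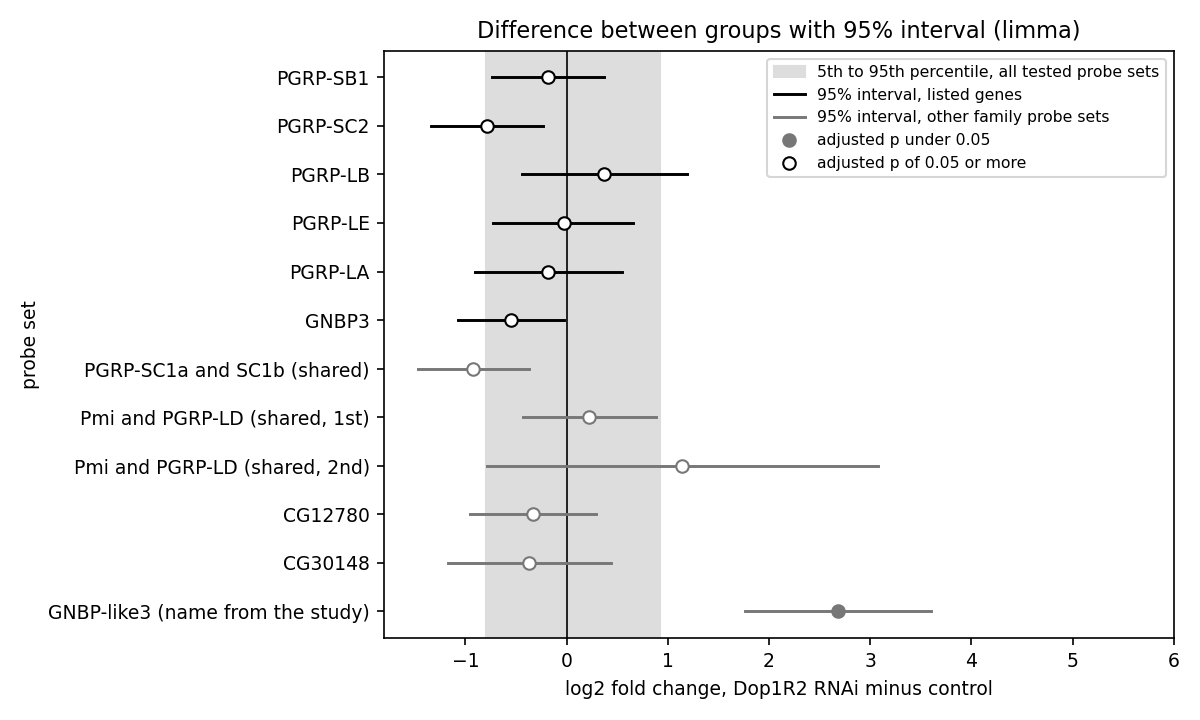
Log2 fold change (Dop1R2 RNAi minus control) with its 95% interval from limma for the tested probe sets of the listed genes (black) and of other PGRP and GNBP family genes (grey), over a band from the 5th to the 95th percentile of all tested probe sets (-0.80 to 0.92). The listed genes have open points, adjusted p of 0.24 or more, and a filled point marks GNBP-like3 at 2.68.

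On the Imd side, PGRP-LE, a sensor that detects peptidoglycan fragments inside cells, had signals of 109 and 136 in knockdown pupae and 99.2 and 156 in controls. The control arrays enclose both knockdown arrays. PGRP-LE had a log2 fold change of -0.03 (SE 0.29, 95% interval -0.73 to 0.66, adjusted p = 0.978 from limma). That interval reaches from 0.604 to 1.58 times the control level, so a change of modest size was not detectable for PGRP-LE.

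PGRP-LA, a membrane-associated member of the family that is not thought to bind peptidoglycan and acts in barrier epithelia, lies next to PGRP-LC and 1 gene from PGRP-LF in the reference order. Its brighter probe set read 162 and 115 in knockdown pupae and 124 and 192 in controls. The groups overlapped, and the log2 fold change was -0.18 (SE 0.31, 95% interval -0.90 to 0.55, adjusted p = 0.848 from limma). Its second probe set read 8.21 and 21.8 in knockdown pupae and 9.11 and 6.73 in controls, and was not tested. The geometric means of the second probe set differ in the other direction (a ratio of 1.71 against 0.885 for the brighter one), with overlapping groups on both. PGRP-LF, which blocks PGRP-LC, was at 11.1 and 6.25 in knockdown pupae and 3.34 and 6.52 in controls, too dim to be tested.

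The directions of PGRP-LE and PGRP-LA were set by single arrays. With each array left out in turn, the log2 fold change of PGRP-LE ran from -0.36 (without control replicate 1) to 0.29 (without control replicate 2), and that of PGRP-LA from -0.49 to 0.14 with the same arrays left out. PGRP-SB1 (-0.29 to -0.08), GNBP3 (-0.60 to -0.50), PGRP-SC2 (-1.08 to -0.50) and PGRP-LB (0.12 to 0.63) kept their sign. The groups did not overlap for these genes, so leaving out a single array could not have changed the sign.

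**Figure D3:**
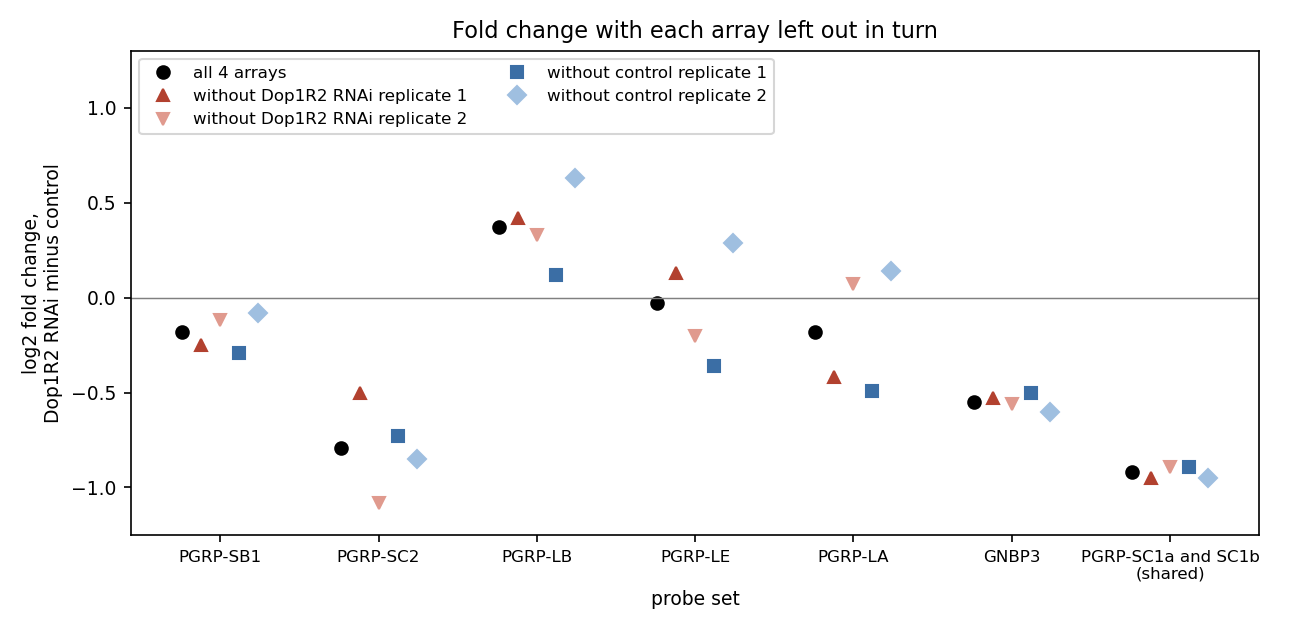
Log2 fold change (Dop1R2 RNAi minus control) of the tested probe sets of the listed genes and of the probe set shared by PGRP-SC1a and PGRP-SC1b, from all 4 arrays and with each array left out. PGRP-LE and PGRP-LA cross 0 (-0.36 to 0.29 and -0.49 to 0.14), and GNBP3 stays between -0.60 and -0.50.

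On the Toll side, GNBP3, the secreted sensor of fungal glucans, was the listed gene with the closest replicates. Its signal was 137 and 140 in knockdown pupae and 210 and 196 in controls, a gap between replicates of 2.16% and 7.07%. Both knockdown arrays were below both controls, with all 4 array pairs between 0.48 and 0.61 apart on the log2 scale. On the log2 scale the fold change was -0.55 (SE 0.22, 95% interval -1.07 to -0.03, adjusted p = 0.363 from limma), a geometric mean 31.6% below that of the controls. The adjusted p stayed between 0.289 and 0.774 over all alternatives. Summed fat body markers overlapped between the groups. Of 8 haemocyte markers with a probe set (5 tested), 2 had both Dop1R2 RNAi arrays below both controls and 3 had both above. Over all tested probe sets the shares are 24.0% and 21.1%, and no share was taken over dim ones such as PPO1, 1 of the 2 below. The summed signal of the haemocyte markers was 515 to 520 in knockdown pupae and 618 to 722 in controls. That lower sum comes from Pxn, which encodes the extracellular matrix enzyme peroxidasin (187 and 170 against 359 and 380, log2 fold change -1.05, adjusted p = 0.0926). Next in size was the prophenoloxidase gene PPO2, at 67.1 and 71.8 against 38.3 and 57.8 (log2 fold change 0.56, adjusted p = 0.46), and the median over the 5 tested haemocyte markers was 0.32. Their part in the value of GNBP3 was not tested.

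Other genes of the 2 families gave 1 called gene. GNBP-like3, a short relative of the glucan-binding domain of GNBPs, had signals of 93.7 and 88.0 in knockdown pupae and 18.7 and 10.7 in controls. It reached the filter's percentile on the knockdown arrays alone, so its entry into the test depended on the group in which it was high. Its signal on control replicate 2 stood at the 20th percentile of that array. Its log2 fold change was 2.68 (SE 0.39, adjusted p = 0.0247 from limma). Its probe set is unnamed in the annotation and takes its name from the study's table of called genes, which was chosen on these arrays, so its rise is not independent evidence. The call was lost without control replicate 2 (adjusted p = 0.066) or without the filter (0.0548), and over all alternatives its adjusted p ran from 0.00281 to 0.512. The related short genes CG12780 (244 and 174 against 234 and 286) and CG30148 (96.7 and 54.4 against 79.6 and 110) had log2 fold changes of -0.33 and -0.37 with overlapping groups (adjusted p = 0.622 and 0.677). GNBP2 was too dim to be tested. The 2 probe sets shared by PGRP-LD and Pmi had log2 fold changes of 0.22 and 1.14 (adjusted p = 0.767 and 0.581), the second with control signals of 6.80 and 38.7.

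Genes that act beside and downstream of the receptors held several calls. Of 78 genes in 6 lists of family, Toll, Imd and antimicrobial peptide genes, 58 had a probe set of their own, 48 were tested, and 4 rose and 0 fell by limma's adjusted p, beside the background of 1.38% and 0.103% given above. All 6 lists were chosen with earlier results of these data known. The 4 are pirk, Myd88, spz and Drs. Of these, pirk reached the filter's percentile on the knockdown arrays alone, so its entry into the test depended on the group in which it was high.

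The pirk gene, whose product binds PGRP-LC and PGRP-LE and lowers Imd signalling, had signals of 93.5 and 92.6 in knockdown pupae against 8.95 and 6.56 in controls. Both control signals fell short of their array's 20th percentile. Against signals raised to that percentile, pirk was 8.75-fold higher by point estimate. As fitted on the unraised signals, the log2 fold change was 3.60 (SE 0.43, 95% interval 2.58 to 4.63, adjusted p = 0.0117 from limma). That interval reaches from 5.97 to 24.7 times the control level. With each array left out in turn the log2 fold change of pirk ran from 3.38 to 3.83. With 32 added to every signal before taking logs it was 1.65, below that interval, so its size depends on how dim signals are treated. The call was lost with the t-test of the study's methods (adjusted p = 0.464). After Benjamini-Hochberg adjustment that t-test called 0 probe sets in either direction, so this loss is not particular to pirk. The other 9 tested negative regulators of Imd did not pass. Over that list, the median log2 fold change was 0.16.

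Among tested genes of the Imd pathway inside the cell 0 of 8 passed, with a median log2 fold change of 0.26 (2 were higher and 0 lower at unadjusted p, against 7.53% and 5.51% of all tested probe sets). The transcription factor gene Rel had signals of 126 and 162 in knockdown pupae against 57.7 and 62.3 in controls (log2 fold change 1.25, SE 0.24, adjusted p = 0.0732 from limma). The adaptor gene Tab2 read 156 and 204 against 98.5 and 98.4 (0.86, adjusted p = 0.223). Both knockdown arrays were above both controls for Rel and for Tab2.

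Of 11 tested genes of the extracellular Toll cascade, spz, which encodes the Toll ligand Spätzle, was the 1 that rose. Its signal was 151 and 186 in knockdown pupae against 56.4 and 62.3 in controls (log2 fold change 1.50, SE 0.24, adjusted p = 0.0355 from limma). Of 10 tested genes of the Toll pathway inside the cell Myd88, the adaptor that binds Toll, rose, with 299 and 375 against 92.4 and 120 (log2 fold change 1.67, SE 0.25, adjusted p = 0.0304). The receptor gene Tl itself read 132 and 126 against 131 and 133 (log2 fold change -0.03, adjusted p = 0.972). The medians of the 2 lists were 0.16 and 0.07. Both calls were lost without control replicate 1 (adjusted p = 0.253 for spz and 0.263 for Myd88) or without control replicate 2 (0.137 for spz and 0.121 for Myd88), with no filter (0.0696 for spz and 0.0532 for Myd88) and without the trend in eBayes (0.0677 for spz and 0.0641 for Myd88), over ranges of 0.000754 to 0.493 for spz and 3.45e-05 to 0.512 for Myd88 in all alternatives.

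Of 7 tested antimicrobial peptide genes with an annotated probe set, Drs, which encodes the antifungal peptide drosomycin, rose, with a mean signal of 3024 ± 269 in knockdown pupae against 1195 ± 109 in controls (SD over 2 arrays each, log2 fold change 1.34, SE 0.18, adjusted p = 0.0197 from limma). The call on Drs was lost without control replicate 1 (adjusted p = 0.211) or 2 (0.18), with no filter (0.0548) and without the trend (0.089), within a range of 1.35e-07 to 0.478 over alternatives. The other 6 did not pass. The cecropin gene CecB read 96.6 and 215 in knockdown pupae against 19.5 and 39.4 in controls (log2 fold change 2.38, SE 0.48, adjusted p = 0.08), with both knockdown arrays above both controls. Mtk, Def, DptB, Drsl5 and AttD had log2 fold changes of 0.75, 0.45, 0.43, 0.29 and -0.20 (adjusted p 0.246 to 0.785). Over the 7 the median log2 fold change was 0.45.

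A further 4 peptide genes have probe sets named only in the study's table of called genes, which was chosen on these arrays, so their values are not independent evidence and are left out of the counts. AttB, an attacin gene, read 1124 and 1198 in knockdown pupae against 108 and 87.5 in controls (log2 fold change 3.58, adjusted p = 0.0013 from limma). The cecropin gene CecA1 read 311 and 485 against 56.6 and 55.2 (log2 fold change 2.80, adjusted p = 0.00526), a call lost without control replicate 1 (0.0902) or 2 (0.0739). CecA2 read 161 and 232 against 5.53 and 6.86, both of these under the 20th percentile. Against signals raised to that percentile, CecA2 was 18.2-fold higher by point estimate. As fitted on the unraised signals, its log2 fold change was 4.97 (95% interval 4.1 to 5.85, adjusted p = 0.00168 from limma). That interval reaches from 17.2 to 57.5 times the control level. With 32 added to every signal before taking logs, the log2 fold change of CecA2 was 2.56, below that interval. AttC read 43.0 and 54.9 against 14.9 and 16.7 and did not pass (log2 fold change 1.63, adjusted p = 0.175). CecA2 and AttC reached the filter's 40th percentile on the knockdown arrays alone. Attacin and cecropin genes have near-identical copies, so these signals may be shared between relatives. The adjusted p ran from 1.54e-21 to 0.461 for AttB, 4.56e-14 to 0.493 for CecA1 and 3.22e-08 to 0.464 for CecA2 over alternatives, highest with the methods' t-test.

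**Figure D4:**
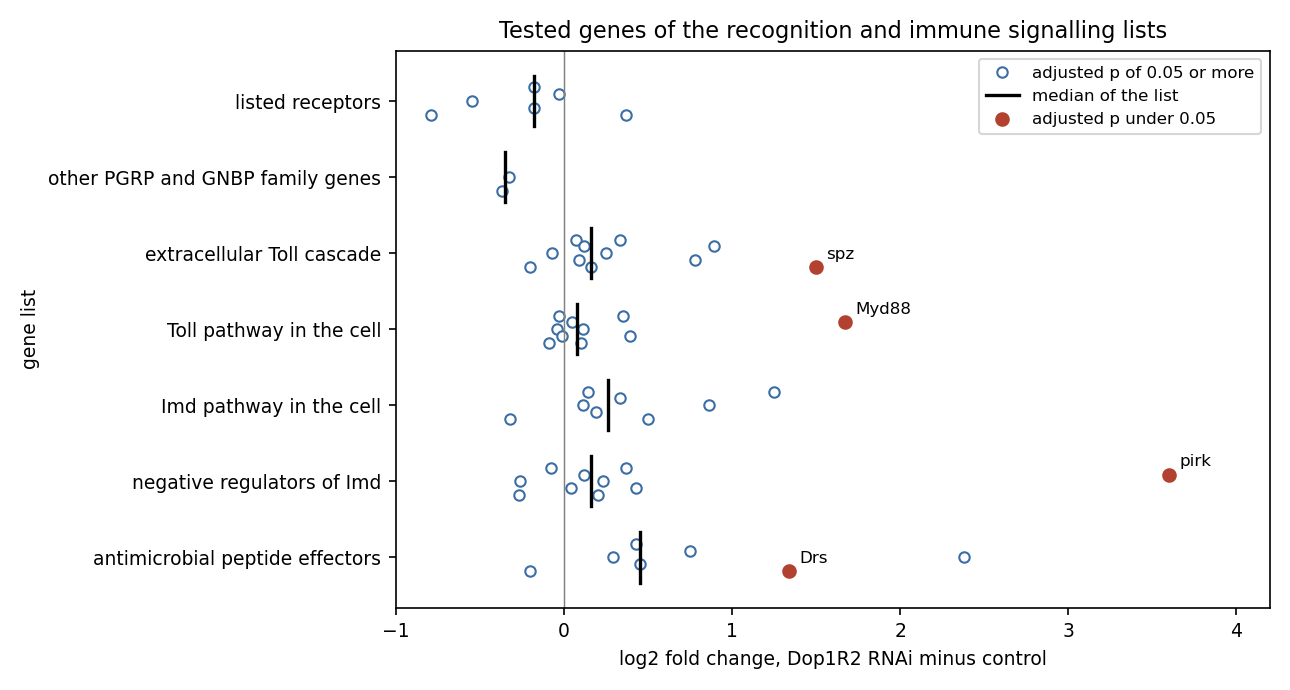
Log2 fold change (Dop1R2 RNAi minus control) of each tested gene with an annotated probe set, by list, with filled points for adjusted p under 0.05 and a line at the median of each list. The listed receptors have no filled point and a median of -0.18, and pirk (3.60), Myd88 (1.67), spz (1.50) and Drs (1.34) are the filled points in the other lists.

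Markers of the pupal stage were read on the same arrays. Of 9 with a probe set, 7 were tested and 2 rose at adjusted p from limma (against 1.38% of all tested probe sets), the cuticle gene Edg91 (178 and 290 against 56.5 and 51.7, log2 fold change 2.07, adjusted p = 0.0226) and the insulin-binding protein gene ImpL2 (766 and 1106 against 221 and 279, log2 fold change 1.89, adjusted p = 0.022). Both calls were lost without control replicate 1 (adjusted p = 0.195 for Edg91 and 0.253 for ImpL2), without control replicate 2 (0.141 for Edg91 and 0.127 for ImpL2) and without the trend (0.0517 for Edg91 and 0.0568 for ImpL2), and that of Edg91 also with no filter (0.0532). Of the other 5 tested, Edg78E (1.98), Edg84A (1.56) and ftz-f1 (1.03) had positive log2 fold changes and ImpE2 (-0.78) and Eip78C (-0.58) negative ones (adjusted p 0.067 to 0.38). The filter's 40th percentile was reached by ftz-f1 on the knockdown arrays alone. Over the 9, 5 had both Dop1R2 RNAi arrays above both controls and 3 had both below. Over all tested probe sets the shares are 21.1% and 24.0%, and no share was taken over dim ones such as ImpE1, 1 of the 3 below. The summed signal of these markers was 3126 and 4260 in knockdown pupae and 3337 and 4544 in controls. Their part in the values of the recognition genes was not tested.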

How the data were processed

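RNA of whole pale pupae was measured on 4 Affymetrix DrosGenome1 arrays. The authors deposited an intensity for each probe set, made with Microarray Suite (MAS5 by the submitters' processing notes). The table holds 14010 probe sets. The 44 control probe sets were left out. In the annotation, 12443 probe sets carry 1 gene name, 327 several and 1196 none.

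Log2 was taken of the deposited signals as they stand. A probe set was kept if 2 or more of the 4 arrays reached their 40th percentile for it. The 8749 kept (62.6%) went into limma 3.58.1 in R 4.3.3 (eBayes with a trend, 2 residual and 4.95 prior degrees of freedom), with Benjamini-Hochberg adjustment over these. The script was tested on simulated data. Summaries used Python 3.11.15. Where a gene had several probe sets, the brightest stood for it in list counts. Genes were named by a rule: every listed member, every gene of the lists past the threshold and, where none passed, the 2 tested with the greatest change. Beyond the rule, Tl, Fbp2, apolpp, Amy-d, alphaTry, Jon25Bii, the further tested antimicrobial peptide and pupal stage genes, and dim or shared family probe sets were named after their values were seen. Salivary gland markers are given as counts (Sgs8 was the 1 tested, log2 fold change 0.00). The members and lists were chosen with earlier results of these data known. Gene order was taken from the Release 6 annotation, and no coordinates are given, since the build of the array design was not stated in the sources used here. Alternatives changed the filter, floor, value added, scaling, trend, block, arrays used and test.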

Additional observations from a re-analysis of the deposited data

How the results depend on the processing

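The tested listed genes gave 0 calls as higher in every alternative and 0 as lower in all but 1 (0 to 1 with each array left out). That call was PGRP-SC2, without Dop1R2 RNAi replicate 2. Of 90 refitted fold changes of the 6 listed genes and the shared PGRP-SC1 probe set, 85 kept their sign and side of the threshold and 4 changed sign. Changes of filter, trend, block and test leave the fold change as it is and could not change its sign. The 4 sign changes all came from fits with an array left out. They belong to PGRP-LE (-0.36 to 0.29 with each array left out) and PGRP-LA (-0.49 to 0.14). Both genes had overlapping groups, and why their arrays differ was not tested. Over all probe sets, 121 were called higher and 9 lower. With no filter, 75 passed as higher and 3 as lower, and 1 of the 4 calls in the pathway lists (pirk) was made, with more probe sets tested. With each array left out, 27 to 357 were higher and 0 to 295 lower. The methods' t-test gave 467 higher and 323 lower at the unadjusted threshold of 0.05, with GNBP3 the 1 listed gene among them, and 0 and 0 after Benjamini-Hochberg. With the filter at the 60th percentile PGRP-LB could not be tested. Counting every probe set of a gene gave the same 4 calls in the pathway lists. The replicate numbers are not stated to mark shared batches, the deviations of same-numbered arrays had a correlation of 0.151, and a fit with the replicate number as a block (a paired fit) called 131 higher, 10 lower and 0 listed genes. Detection calls were not used here, so the precision of dim probe sets rests on the filter alone.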
